A study of Mus musculus with 8 samples.

Results

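The genotype by surgery interaction measures, for each transcript of the left ventricle, how far the response to pressure overload differed between hearts with and without cardiac Lin28a. It was computed as the change from sham surgery to transverse aortic constriction (TAC, surgical narrowing of the aorta, which makes the ventricle pump against a higher pressure) in knockout hearts minus the same change in floxed hearts. All 8 of the 8 libraries entered it, and 13120 of the 13439 genes listed were tested, those with at least 1 CPM (reads of a gene scaled to a common library size) in at least 2 libraries. All differences are on the scale of log2(CPM + 1), and ± gives the standard error. Below 0, the knockout change is smaller for a transcript that rises or greater for one that falls; above 0, the opposite holds.

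The mice were Lin28afl/fl animals, whose Lin28a is flanked by recombination sites but intact, and littermates with a cardiac knockout, labelled Lin28aCko and called cKO here. Each genotype had 2 libraries after sham surgery and 2 libraries from hearts taken on day 5 after TAC, and the day of the sham hearts is not given. The labels give neither the Cre driver nor the age or sex of the mice. They call the libraries duplicates without saying that each came from its own animal. Sex-linked transcripts, below, show different animals for the 2 cKO sham libraries only. The p-values reflect the spread between these samples, which in the other groups need not be that between animals. In floxed sham and in cKO TAC the 2 libraries also differed in atrial transcripts, below. The level of Lin28a itself was not analysed here, and the genotype of each library is taken from its label.

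LIN28A is an RNA-binding protein that keeps let-7 precursors from being processed into mature let-7 microRNAs, and through them it raises growth genes that let-7 represses. It is best known from embryonic and dividing cells, and its level in adult heart muscle is low. A ventricle under pressure load enlarges its muscle cells, returns to a fetal set of transcripts led by the natriuretic peptides, lays down collagen, takes up macrophages, and turns down fatty acid burning, ion channels and calcium handling.

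Libraries held 10315902 to 21871570 reads, so that a count of 0 allowed up to 0.137 to 0.291 CPM (3 reads), a limit that covers counting error only. One library, cKO sham 2, carried Xist, the RNA of the inactive X chromosome, at 44.3 CPM and no reads of the Y-linked Ddx3y. Elsewhere Xist reached at most 0.173 CPM and Ddx3y stood at 32.3 to 63.2 CPM. By these transcripts cKO sham 2 was female and the rest male, so sex differed within cKO sham and within no other group. Atrial transcripts marked 3 libraries: in floxed sham 2 the light chain Myl7 stood at 133 CPM, in cKO sham 2 at 65.0 and in cKO TAC 2 at 66.2, with 0.511 to 6.16 CPM in the rest. Cardiomyocyte transcripts were present in every library: the 14 markers summed to 64370 to 92279 CPM. The part of these differences between libraries in the results was not tested beyond the fits that leave them out.

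The response to TAC was much smaller without Lin28a, in both directions. By limma with Benjamini-Hochberg adjustment, 1851 genes, 14.1% of those tested, had an interaction with an adjusted p under 0.05, of which 1204 (9.18%) were negative and 647 (4.93%) positive, and 1106 exceeded 1 on the log2 scale. Without adjustment 4149 genes had a p under 0.05. In floxed hearts TAC changed 5562 genes (42.4%), 3655 higher (27.9%) and 1907 lower (14.5%). In cKO hearts it changed 332 genes (2.53%), 274 higher (2.09%) and 58 lower (0.442%).

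Nearly every called interaction was a floxed response that cKO hearts did not match. A called floxed response was present for 1821 of the 1851 genes (98.4%), and the interaction opposed it each time: 1187 genes rose in floxed hearts and had a negative interaction, 634 fell and had a positive one, and 0 had both of the same sign. A called cKO response was present for 131 (7.08%). The interaction shares its libraries with both responses, so these counts describe its make-up and are not separate evidence.

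The difference between genotypes lay mostly in TAC hearts. Between genotypes 3263 genes (24.9%) differed after TAC and 7 genes (0.0534%) after sham surgery. Of the genes called in the interaction, 1696 were among the former, and all 7 of the latter were called in the interaction. The genotype difference was larger after TAC than after sham surgery for 1738 genes (93.9%), and at least as large after sham surgery for 113 (6.10%).

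The number of called genes depended on the library set more than on the method. Leaving out floxed sham 1 or 2 left 253 or 608 called genes, and leaving out floxed TAC 1 or 2 left 697 or 729. Leaving out cKO sham 1 or 2 left 1086 or 1187. The cKO TAC libraries differed most, with 986 when the first and 2918 when the second was left out. With those 3 atrial libraries left out, which leaves 1 library in 3 of the 4 groups, 1781 genes were called, of which 1146 were shared with the full set. Under RLE scaling (median of ratios) 1759 genes were called, but the split moved from 1204 lower and 647 higher to 916 lower and 843 higher, that is from 65.0% to 52.1% lower. The median interaction of all genes was -0.13 as deposited and -0.02 under RLE, so a list's median is best read against -0.13.

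**Figure D1:**
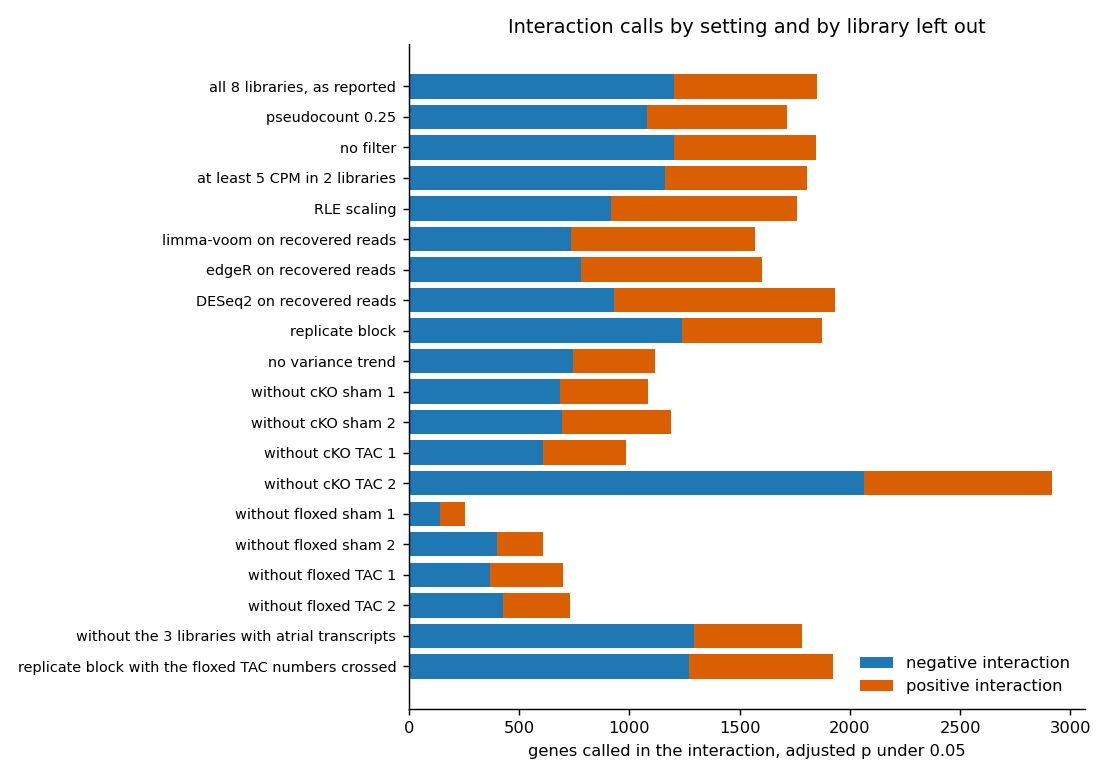
Number of genes with a called interaction (x axis, adjusted p under 0.05) under each setting and with each library left out (y axis), split by sign. The bar without floxed sham 1 is the shortest at 253 genes and the bar without cKO TAC 2 the longest at 2918, while the settings that keep every library run from 1118 to 1933.

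To ask which responses were kept, scaled down or lost, response genes were chosen on the average of both TAC responses. In this balanced design that average is uncorrelated with the interaction if all groups have equal spread, which was not tested. That average was called for 4710 genes (35.9%), and 1144 of them moved by more than 1 on the log2 scale, 964 that rose and 180 that fell. Scaled down means a called interaction with a called cKO response in the floxed direction. Not detected in cKO means a called interaction without a called cKO response, which does not show that the response was absent. Kept within 2-fold means that the 95% interval of the interaction lay between -1 and 1, and a gene whose interval was wider, with no called interaction, is undetermined.

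Of the 1144 response genes, 438 (38.3%) were not detected in cKO, 114 (9.97%) were scaled down, 38 (3.32%) were kept within 2-fold, 2 were larger in cKO and 1 was reversed. The remaining 551 (48.2%) were undetermined, with a median interaction of -0.82 (494 of them rose) and a median SE of 0.42, against a median SE of 0.26 over all genes. Among genes that rose, 341 were not detected, 95 scaled down and 32 kept; among genes that fell, 97, 19 and 6. The genes scaled down were the more abundant ones, with a median of 63.0 CPM against 15.1 CPM for those not detected, so a called cKO response was also easier to reach for them.

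Every class count moved by more than 1.5 times without at least 1 library. Genes not detected in cKO numbered 118, 248, 227 and 227 without floxed sham 1, floxed sham 2, floxed TAC 1 and floxed TAC 2, and 225 without cKO TAC 1. Scaled-down genes numbered 182 without cKO TAC 1 and 16 to 59 without each of the other 7 libraries, and 19 when all 3 atrial libraries were left out. Kept genes numbered 72 without cKO TAC 1, 16 to 19 without each of the 4 floxed libraries, and 25 without the atrial ones.

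**Figure D2:**
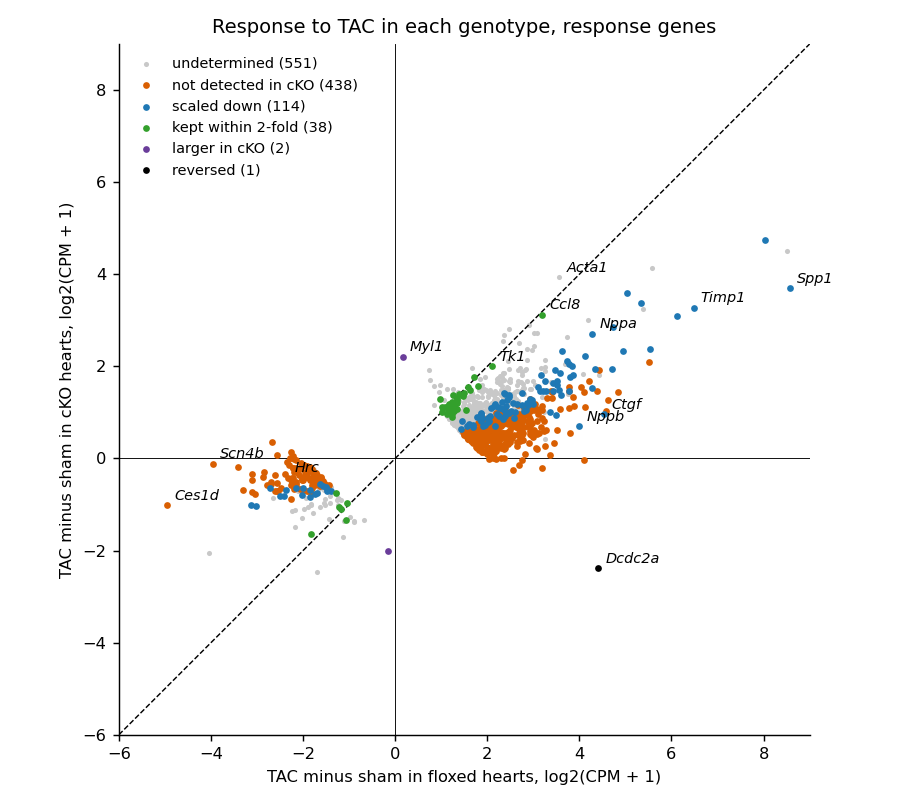
TAC response in floxed hearts (x axis) against that in cKO hearts (y axis), both as differences of log2(CPM + 1), for the 1144 response genes, 1 point each, coloured by class. The dashed line marks equal responses; most points lie between it and the horizontal axis, 38 kept genes lie along it, and Dcdc2a lies on the opposite side of the axis.

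The cKO response was a median 42.2% of the floxed response on the log2 scale for genes that rose (quartiles 29.5% and 57.3%) and 28.9% for genes that fell (quartiles 19.0% and 44.5%). It was below 100% for 936 of 964 genes that rose and 171 of 180 that fell, and at or below 0 for 8 and 6. Both cKO TAC libraries showed the reduction, to unequal extents. Set alone against the cKO sham mean, cKO TAC 1 gave 30.9% for genes that rose and 23.2% for genes that fell, and cKO TAC 2 gave 53.9% and 35.9%. With cKO TAC 1 left out of the fit the share for genes that fell was 38.1%. By limma-voom, edgeR and DESeq2, each with its own response genes, the share for genes that rose was 49.6%, 50.4% and 50.2%. For genes that fell these methods gave 27.8%, 27.1% and 27.1%.

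**Figure D3:**
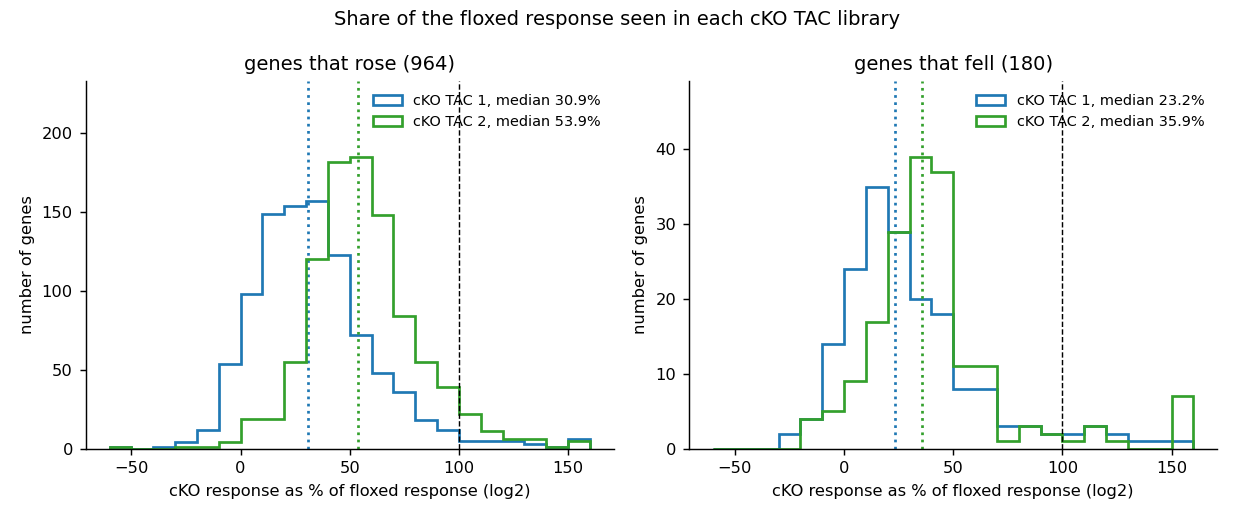
Share of the floxed TAC response seen in each cKO TAC library (x axis, percent on the log2 scale, more extreme values placed in the end bins) by number of genes (y axis), for genes that rose (left) and fell (right). Dotted lines mark the medians, 30.9% and 53.9% on the left and 23.2% and 35.9% on the right, all left of the dashed line at 100%.

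The hypertrophy program rose in both genotypes and rose less in cKO hearts. Of its 22 tested genes 20 rose in floxed hearts and 9 in cKO hearts, and 12 had a called negative interaction and 0 a positive one, against 9.18% negative over all genes. The median response was log2 2.51 in floxed and 0.74 in cKO hearts, and the median interaction was -1.40. Without floxed sham 1 the count was 6, and without the atrial libraries 11. The 9 called in cKO hearts numbered 4 without either cKO sham library, 15 without cKO TAC 1, 5 by limma-voom and 2 without the atrial libraries.

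Nppb, the B-type natriuretic peptide that stretched heart muscle secretes (chr4:147985788-147987205, GRCm38), had the lowest interaction p of all genes. It was at 73.3 and 76.9 CPM in floxed sham, 1346 and 1087 CPM in floxed TAC, 364 and 377 CPM in cKO sham and 592 and 615 CPM in cKO TAC hearts. The 4 groups did not overlap, and both cKO groups lay between the floxed ones. The rise was log2 3.99 in floxed hearts and 0.70 in cKO hearts, and the interaction was -3.29 ± 0.17 (SE, adjusted p = 6.26e-05), called under every alternative run. Most of this interaction lay in the baseline: cKO sham hearts exceeded floxed sham hearts by log2 2.29 (adjusted p = 7.34e-05). The lower level in cKO TAC than in floxed TAC hearts made up the smaller part.

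Its neighbour Nppa, the A-type peptide gene (chr4:148000722-148002079), started from a more even baseline. It was at 188 and 189 CPM in floxed sham, 4033 and 3323 CPM in floxed TAC, 286 and 248 CPM in cKO sham and 2171 and 1409 CPM in cKO TAC hearts. Both TAC groups lay far above both sham groups, and cKO TAC below floxed TAC. The responses were log2 4.27 and 2.71, and the interaction was -1.56 ± 0.27 (adjusted p = 0.00953; 0.0543 without floxed sham 1).

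Among cytoskeletal members the actin crosslinker Actn1 was at 34.4 and 36.1 CPM in floxed sham and 220 and 196 CPM in floxed TAC, against 33.2 and 37.0 CPM in cKO sham and 48.8 and 69.1 CPM in cKO TAC hearts, an interaction of -1.82 ± 0.23 (adjusted p = 0.00454) with 28.1% of the floxed rise retained. The tubulin gene Tubb2b (-2.90 ± 0.40) and the small heat shock protein gene Hspb1 (-1.82 ± 0.27) were also called in the interaction without a called cKO response; Tubb2b has close paralogs among which reads could be split. Skeletal actin, Acta1, behaved otherwise in value, at 5235 and 12442 CPM in floxed TAC and 10643 and 7785 CPM in cKO TAC hearts. Its responses were log2 3.56 and 3.94, and its interaction of 0.38 had an interval from -0.98 to 1.74, too wide to call it kept.

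Transcripts of adult contraction and electrical activity fell in floxed hearts and hardly moved in cKO hearts. Of 20 contraction and calcium handling genes 13 fell in floxed and 0 in cKO hearts, and 12 had a positive interaction (median 0.82), against 4.93% positive over all genes. Of 20 ion channel genes 15 fell and 1 rose in floxed hearts, 0 changed in cKO hearts, and 13 had a positive interaction (median 1.17). The count of 0 in cKO hearts is by limma: at an unadjusted p under 0.05 it was 5 for contraction and 6 for channel genes, and by DESeq2 2 and 1. The 14 cardiomyocyte markers share members such as Myh6, Myl2 and Ryr2 with the contraction list. They summed to 64370 and 66757 CPM in floxed TAC, 75244 and 86622 CPM in cKO TAC and 77923 to 92279 CPM in sham hearts. Singly they were mixed: 4 rose and 6 fell in floxed hearts and 0 changed in cKO hearts. A positive interaction was called for 5 and a negative one for 0, with a median of 0.10. Their part in the result was not tested. The contraction count was 3, 4 and 5 without floxed sham 1, floxed sham 2 and floxed TAC 2, 6 without cKO sham 1, and 7 without cKO sham 2 or cKO TAC 1; the channel count was 6, 7 and 8 without floxed sham 1, floxed sham 2 and floxed TAC 2.

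Scn4b encodes a subunit that tunes cardiac sodium channels (chr9:45138395-45154152). It was at 83.4 and 63.0 CPM in floxed sham hearts and at 2.97 and 4.60 CPM in floxed TAC hearts, but at 44.1 and 42.4 CPM in cKO sham and 41.7 and 38.1 CPM in cKO TAC hearts. Floxed TAC hearts lay below the other 3 groups, and the cKO groups lay side by side. The responses were log2 -3.96 and -0.12 and the interaction 3.85 ± 0.27 (adjusted p = 0.000343), called under every alternative.

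Other channel genes had the same order of values. Scn4a, a sodium channel pore gene best known from skeletal muscle, had an interaction of 2.66 ± 0.34, Kcnj3, of the acetylcholine-gated potassium channel, 2.24 ± 0.27, and Kcnh2, of the rapid delayed rectifier, 1.74 ± 0.23. In cKO hearts their responses were log2 0.08, -0.36 and 0.07, and none was called.

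Hrc, which binds calcium in the sarcoplasmic reticulum (chr7:45335290-45338974), was at 1622 and 1392 CPM in floxed sham and 256 and 345 CPM in floxed TAC, against 1339 and 1288 CPM in cKO sham and 1063 and 911 CPM in cKO TAC hearts. Floxed TAC hearts again stood apart from the other 3 groups, with an interaction of 1.92 ± 0.22 (adjusted p = 0.00415). The ventricular light chain Myl2 (1.54 ± 0.22) and the ryanodine receptor Ryr2 (0.99 ± 0.16), the calcium release channel, were called as well. Myh6, the fast myosin of the adult mouse heart, had an interaction of 1.75 ± 0.44 (adjusted p = 0.0309) that was lost in 8 of 19 alternatives, with adjusted p up to 0.133.

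Matrix genes rose in both genotypes, and the share of the floxed median kept in cKO hearts ran from 26.3% to 49.9% over 5 lists. All 19 collagens rose in floxed hearts and 9 in cKO hearts, with medians of log2 2.98 and 1.40, or 47.1% of the floxed median, and 12 had a negative interaction. Of 20 matricellular and CCN genes 19 rose in floxed and 13 in cKO hearts, with medians of 3.09 and 1.54 (49.9%), and 13 had a negative interaction. The 17 collagen-processing enzymes kept less, with medians of 2.01 and 0.60 (29.8%), 17 called in floxed, 4 in cKO hearts and 13 in the interaction. Elastic fibre and TGF-beta genes kept 40.0%, with 20 of 22 higher in floxed and 5 in cKO hearts and 12 negative interactions. Matrix proteases and inhibitors kept 26.3%, with 10 of 15 higher in floxed and 2 in cKO hearts and 5 negative interactions. No member of these 5 lists had a called positive interaction.

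These counts were lowest without floxed sham 1, at 1 for collagens, 2 for matricellular genes, 4 for processing enzymes, 3 for elastic fibre genes and 1 for proteases. Collagens also fell to 6 without floxed TAC 2, and matricellular genes to 5, 5 and 4 without floxed sham 2, floxed TAC 1 and floxed TAC 2 and to 7 and 8 without cKO sham 1 and 2. Elastic fibre genes numbered 3, 4 and 4 without floxed sham 2, floxed TAC 1 and floxed TAC 2 and 7 without cKO sham 2, and proteases 2, 2 and 1 without those 3 floxed libraries, 2 without cKO sham 1 and 3 without cKO TAC 1. Without the 3 atrial libraries the 5 counts were 14, 15, 13, 13 and 8. The number of collagens called in cKO hearts moved from 9 to 5 without cKO sham 2, to 14 when cKO TAC 1 was left out and to 3 without the atrial libraries, and that of matricellular genes from 13 to 8 without cKO sham 2, 7 without the atrial libraries and 7 by limma-voom. Processing enzymes called in cKO hearts moved from 4 to 1 without either cKO sham library or the atrial ones and to 9 without cKO TAC 1, elastic fibre genes from 5 to 8 without cKO TAC 1 and 3 without the atrial libraries, and proteases from 2 to 4 without cKO TAC 1 and 1 without cKO sham 2, cKO TAC 2 or any floxed library.

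Ctgf, the connective tissue growth factor gene that muscle cells and fibroblasts express under load, went from 51.7 and 48.6 CPM in floxed sham to 1186 and 1189 CPM in floxed TAC hearts. In cKO hearts it went from 113 and 147 CPM in sham to 211 and 300 CPM after TAC. No groups overlapped, and cKO sham hearts already stood above floxed sham hearts (log2 1.34, adjusted p = 0.0366). The responses were log2 4.54 and 0.96, so 21.2% was retained, and the interaction was -3.58 ± 0.24 (adjusted p = 0.000314), called under every alternative.

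Col1a1, a chain of the main fibrillar collagen, was at 165 and 207 CPM in floxed sham, 3413 and 4100.3 CPM in floxed TAC, 191 and 221 CPM in cKO sham and 509 and 1248 CPM in cKO TAC hearts. The sham groups overlapped between genotypes and the TAC groups did not, and the cKO TAC libraries differed from each other by more than the floxed ones. Its interaction was -2.38 ± 0.46 (adjusted p = 0.0134), and 45.0% of the floxed rise was retained. It missed the threshold without floxed sham 1 or floxed TAC 2 (adjusted p up to 0.0685).

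Enzymes that act on collagen split in the same way. Loxl2, which crosslinks it, kept 38.4% of its floxed rise, with an interaction of -2.22 ± 0.28. Serpinh1, the collagen chaperone, kept 7.53%, with an interaction of -2.03 ± 0.29 and 310 and 531 CPM in cKO TAC hearts against 370 and 354 CPM in cKO sham hearts. The protease inhibitor Timp1 had the responses 6.48 and 3.27 and an interaction of -3.21 ± 0.52, which missed the threshold in 1 of 19 alternatives. Osteopontin, Spp1, was at 956 and 324 CPM in floxed TAC and 5.85 and 27.7 CPM in cKO TAC hearts, and its interaction of -4.87 ± 0.87 was not called by any of the 3 count-based tests (adjusted p up to 0.729) or without floxed sham 1.

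Macrophage markers moved with these matrix changes. The 15 macrophage markers summed to 438 and 446 CPM in floxed sham and 2647 and 2307 CPM in floxed TAC hearts, and to 472 and 361 CPM in cKO sham and 789 and 1107 CPM in cKO TAC hearts. All 15 rose in floxed hearts and 11 in cKO hearts, and 10 had a negative interaction (median -1.32). The 11 fibroblast markers, which include Col1a1 and Col1a2, summed to 3258 to 3351 CPM in floxed sham, 7860 and 9769 CPM in floxed TAC, 3232 and 3658 CPM in cKO sham and 3716 and 4946 CPM in cKO TAC hearts. That rise came from the 2 collagens: the other 9 markers summed to 2996 and 2835 CPM in floxed sham, 1714 and 2422 CPM in floxed TAC, 2837 and 3215 CPM in cKO sham and 2667 and 2655 CPM in cKO TAC hearts. Of the 11 markers 7 were higher and 1 lower in floxed hearts, 3 higher in cKO hearts, and 3 had a negative and 1 a positive interaction. In bulk tissue fewer cells of a type and less RNA per cell cannot be told apart, and the part of cell numbers in the matrix results was not tested.

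Among macrophage markers the monocyte receptor Ccr2 was at 0.649 and 1.62 CPM in floxed sham, 40.5 and 38.1 CPM in floxed TAC, 1.36 and 1.33 CPM in cKO sham and 4.41 and 7.49 CPM in cKO TAC hearts. The cKO TAC libraries lay above both sham groups and far below floxed TAC, and the interaction was -2.74 ± 0.40 (adjusted p = 0.00583). Lgals3, Lyz2, Itgam and Cd14 were called in the interaction too, from -2.77 to -1.71. The macrophage count was 1, 6, 2 and 6 without floxed sham 1, floxed sham 2, floxed TAC 1 and floxed TAC 2, and 14 without the atrial libraries. The 11 called in cKO hearts fell to 2 without cKO sham 2, 4 without cKO TAC 2, 7 without floxed sham 1 or 2, 5 without floxed TAC 1 or 2, 6 by limma-voom and 0 without the atrial libraries. Endothelial markers had 0 of 11 called in either response or the interaction by limma (1 in floxed hearts, 4 in cKO hearts and 2 in the interaction at an unadjusted p under 0.05; 0 in the interaction by limma-voom, edgeR and DESeq2), and 4 in the interaction without cKO TAC 2. Mesothelial markers rose in floxed hearts for 6 of 7 genes and in cKO hearts for 1, with 3 negative interactions, at summed levels of 32.1 to 34.6 CPM in floxed TAC and 13.0 to 22.4 CPM in cKO TAC hearts. Those 3 calls fell to 0 without floxed sham 1, floxed TAC 1, floxed TAC 2 or cKO sham 1, and to 1 without floxed sham 2 or cKO TAC 1.

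**Figure D4:**
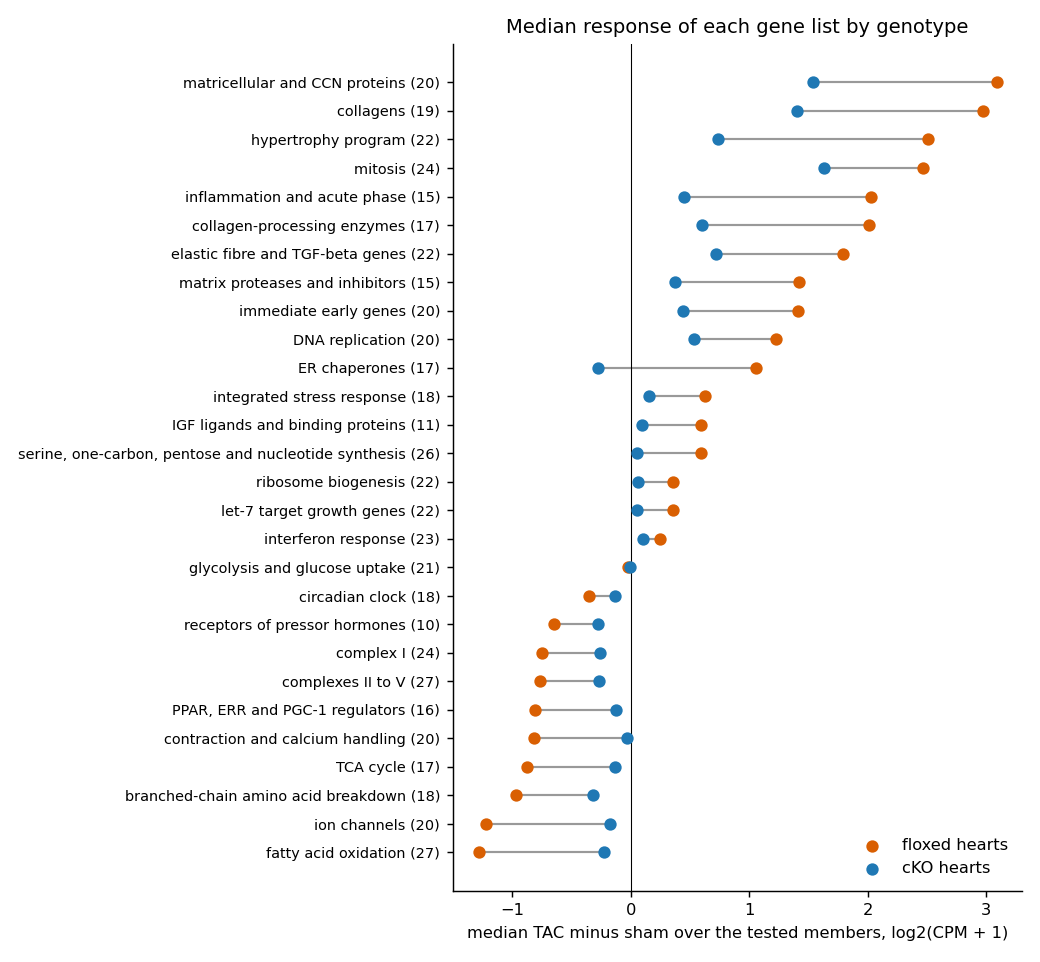
Median TAC response (x axis, difference of log2(CPM + 1)) over the tested members of each gene list (y axis, number tested in parentheses) in floxed (orange) and cKO hearts (blue). In every list plotted the blue point lies nearer to 0; mitosis keeps the largest part among the lists that rose most, and ER chaperones lie on opposite sides of 0.

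Fuel metabolism fell in floxed hearts and by less in cKO hearts. Of 27 fatty acid oxidation genes 26 fell in floxed and 0 in cKO hearts, and 23 had a positive interaction, against 4.93% over all genes. Their medians were log2 -1.28 and -0.22, so 17.3% of the floxed median was retained, and the median interaction was 1.05. In cKO hearts 10 had an unadjusted p under 0.05 by limma, and DESeq2 called 4. The count ranged from 11 without floxed sham 1 and 14 without floxed sham 2 to 24 without cKO TAC 2, and was 18 without the atrial libraries.

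Acot2, a mitochondrial thioesterase that frees fatty acids from coenzyme A (chr12:83987861-83993873), was at 71.7 and 106 CPM in floxed sham and 17.9 and 17.2 CPM in floxed TAC, against 60.9 and 66.9 CPM in cKO sham and 69.9 and 59.2 CPM in cKO TAC hearts. The cKO groups overlapped and floxed TAC hearts lay below all others. The responses were log2 -2.25 and 0.01 and the interaction 2.26 ± 0.25 (adjusted p = 0.00407). Acsl1, which activates long-chain fatty acids for entry into the pathway, was at 491 and 564 CPM in floxed TAC and 1288 and 1179 CPM in cKO TAC hearts (interaction 1.54 ± 0.18), and Cpt2, of the carnitine shuttle, at 120 and 125 against 301 and 248 CPM (1.40 ± 0.18).

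Other lists of mitochondrial fuel use showed smaller values in the same direction. The TCA cycle list, which also holds Pdha1, Pdhb and Pck2, had 16 of 17 genes lower in floxed hearts and 12 positive interactions. Complex I had 23 of 24 and 10, complexes II to V 27 of 27 and 5, and branched-chain amino acid breakdown 16 of 18 and 8. No gene of the first 3 lists was called in cKO hearts by limma, where 4, 9 and 10 had an unadjusted p under 0.05. DESeq2 called 1, 1 and 2. In branched-chain breakdown 1 gene fell in cKO hearts by limma, 10 had an unadjusted p under 0.05, and DESeq2 called 2. Its cKO median was log2 -0.32, or 33.1% of the floxed median. Complexes kept more of the floxed median, 34.2% for complex I and 34.7% for complexes II to V, than the TCA cycle at 15.5%. The regulators of the PPAR, ERR and PGC-1 families had 13 of 16 lower in floxed hearts, 0 in cKO hearts (3 at an unadjusted p under 0.05, 0 by DESeq2) and 8 positive interactions.

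Among these, Aldh6a1, of valine breakdown, was at 81.5 and 64.7 CPM in floxed TAC against 172 and 153 CPM in cKO TAC hearts (interaction 1.23 ± 0.18, adjusted p = 0.00616), and called under every alternative. Ndufs1, of complex I, had an interaction of 0.87 ± 0.17, and citrate synthase, Cs, 0.74 ± 0.17. The calls of these lists were few without some libraries. Leaving out any 1 library other than cKO TAC 2 left 0 to 5 calls in the TCA cycle, 0 to 3 in complex I, 0 to 2 in complexes II to V, 1 to 6 in branched-chain breakdown and 1 to 7 among the regulators, each lowest without floxed sham 1. Leaving out cKO TAC 2 gave 15, 14, 11, 10 and 9, and leaving out the atrial libraries 1, 2, 0, 6 and 5.

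Glycolysis moved in both directions at once. Of 21 genes 8 rose and 5 fell in floxed hearts and 0 changed in cKO hearts by limma (4 at an unadjusted p under 0.05, 3 by DESeq2), and 5 had a positive and 5 a negative interaction, or 5 and 2 under RLE. The muscle phosphofructokinase Pfkm fell in floxed hearts (interaction 0.83 ± 0.16) and the platelet form Pfkp rose there (-1.35 ± 0.33). The list's median interaction was -0.04 and changed sign to 0.09 under RLE scaling. Leaving out 1 library gave 0 to 6 negative and 0 to 4 positive calls, with none of either sign without floxed sham 1 and the 6 negative without cKO TAC 2. Pck2, the mitochondrial phosphoenolpyruvate carboxykinase, had an interaction of -0.63 ± 0.27 that was not called (adjusted p = 0.141).

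Chaperones of the endoplasmic reticulum (ER) rose in floxed hearts and no member rose in cKO hearts. These proteins fold and check newly made secreted and membrane proteins, and cells raise them when unfolded protein builds up. Of 17 genes 14 rose in floxed hearts, whereas in cKO hearts 0 rose and 1 fell. An interaction was called for 15, all negative, or 12 under RLE, and the medians were log2 1.05 in floxed and -0.27 in cKO hearts. The count was 7 without floxed sham 1, and 13 without the atrial libraries, where 1 gene was also positive.

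Pdia6, a disulfide isomerase (chr12:17266545-17284770), was at 85.4 and 87.2 CPM in floxed sham and 220 and 256 CPM in floxed TAC, but at 109 and 119 CPM in cKO sham and 78.1 and 99.7 CPM in cKO TAC hearts. Floxed TAC hearts lay above all others and cKO TAC hearts below cKO sham hearts. The interaction was -1.81 ± 0.19 (adjusted p = 0.00326), called under every alternative. Sdf2l1 (-2.49 ± 0.34), Manf (-1.84 ± 0.24), a secreted survival factor of the ER, and the stress transcription factor gene Xbp1 (-1.16 ± 0.16) were called with cKO responses of log2 -0.64, -0.14 and -0.11, none of them called. BiP itself, Hspa5, chosen after its values were seen, as was Hsp90b1 below, was at 603 and 734 CPM in floxed TAC and 384 and 420 CPM in cKO TAC hearts (-0.98 ± 0.22, adjusted p = 0.0205). Outside the list Serp1, which stabilises membrane proteins under ER stress, had an interaction of -1.61 ± 0.17.

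Because these genes moved together, their promoters were searched for the ER stress response element, spelled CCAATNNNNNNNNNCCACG, on both strands, in RefSeq windows of 250 bases before to 50 after each start (GRCm38.p6). Windows were found for 15 of the 17 genes and 7 held a match, against 0.119% of 32851 windows of all genes. The element is known from ER stress genes and the list was made of such genes, so a high share could be foreseen without these data. This contrast is therefore no evidence about the responses measured here. Those of Hspa5 (chr2:34771840-34772139, plus strand), Hsp90b1 (chr10:86705395-86705694, minus strand, 2 matches, the other in reverse) and Pdia6 (chr12:17266339-17266638, plus strand) are shown 5′ to 3′ with the matches in capitals.
Hspa5: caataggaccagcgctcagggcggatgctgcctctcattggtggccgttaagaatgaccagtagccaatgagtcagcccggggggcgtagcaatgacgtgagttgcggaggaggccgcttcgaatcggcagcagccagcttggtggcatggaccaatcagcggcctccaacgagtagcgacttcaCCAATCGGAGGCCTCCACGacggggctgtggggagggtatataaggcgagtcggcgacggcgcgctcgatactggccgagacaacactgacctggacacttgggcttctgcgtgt
Hsp90b1: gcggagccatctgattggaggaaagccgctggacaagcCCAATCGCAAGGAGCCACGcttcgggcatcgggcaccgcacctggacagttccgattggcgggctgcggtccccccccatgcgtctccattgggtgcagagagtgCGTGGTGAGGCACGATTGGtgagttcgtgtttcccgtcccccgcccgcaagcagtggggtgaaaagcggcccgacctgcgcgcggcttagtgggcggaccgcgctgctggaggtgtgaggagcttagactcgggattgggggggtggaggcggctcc
Pdia6: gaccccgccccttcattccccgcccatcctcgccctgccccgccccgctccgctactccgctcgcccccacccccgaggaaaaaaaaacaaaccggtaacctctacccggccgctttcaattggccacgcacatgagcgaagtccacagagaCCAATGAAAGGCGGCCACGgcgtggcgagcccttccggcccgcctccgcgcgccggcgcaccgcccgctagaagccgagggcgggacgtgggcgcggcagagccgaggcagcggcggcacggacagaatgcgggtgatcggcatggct

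The 7 genes with a match had a median interaction of -1.07, all 7 called, and the 8 without a match -1.17, 6 called. Values ran from -1.81 to -0.50 with a match and from -2.49 to 1.25 without. Whether a match goes with the size of the interaction was not tested. A match describes letters in this window and is neither a binding site nor a cause.

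Among the lists whose floxed median exceeded 1 in size, mitosis retained the largest share of the response. Its level was still lower in cKO TAC than in floxed TAC hearts, called for 18 of 24 genes (median log2 -1.12). The list summed to 163 and 249 CPM in cKO TAC and 440 and 431 CPM in floxed TAC hearts. Between the sham groups 0 genes were called, with a median of -0.42. Of 24 mitosis genes 23 rose in floxed hearts and 17 in cKO hearts, with medians of log2 2.47 and 1.63, or 66.2%, and 1 had a called interaction (9 at an unadjusted p under 0.05). The 17 called in cKO hearts were 3 by limma-voom, 19 by edgeR and 22 by DESeq2, and 5 without cKO sham 2, 9 without cKO TAC 2, floxed TAC 1 or floxed TAC 2, and 5 without the atrial libraries. Of 20 DNA replication genes 17 rose in floxed and 5 in cKO hearts, with medians of 1.23 and 0.53, and 0 had a called interaction by limma (4 at an unadjusted p under 0.05; 0 by limma-voom, edgeR and DESeq2). The 5 replication genes called in cKO hearts were 2 without cKO sham 1 or cKO TAC 2, 1 without cKO sham 2, 3 without floxed TAC 1 or 2 and 0 without the atrial libraries. A missing call is not equality, since 22 of the 24 mitosis genes were undetermined and 23 had a negative value. Without cKO TAC 2 the mitosis count was 10 and that of replication 3, and without the 3 atrial libraries, which include cKO TAC 2, they were 14 and 7.

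Tk1, the thymidine kinase of the DNA synthesis phase, was kept within 2-fold. It was at 2.66 and 3.06 CPM in floxed sham, 17.4 and 14.1 CPM in floxed TAC, 1.26 and 1.26 CPM in cKO sham and 7.23 and 8.99 CPM in cKO TAC hearts. The cKO values were lower in both surgeries, so 94.9% of the floxed response of log2 2.11 was retained and the interaction was -0.11 with an interval from -0.78 to 0.56. Cdc6, which loads the replicative helicase, and E2f1, the transcription factor that opens this phase, were the other two replication genes kept within 2-fold. Cdc6 was chosen after its values were seen.

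Mitotic genes were spread more widely. The topoisomerase Top2a was at 48.1 and 42.9 CPM in floxed TAC and 18.8 and 31.6 CPM in cKO TAC hearts, with an interaction of -0.37 and an interval from -1.43 to 0.69. The kinase genes Plk1 (-1.35 ± 0.44, adjusted p = 0.07) and Cdk1 (-1.25 ± 0.39, adjusted p = 0.0614) came close to the threshold. Aurka, the spindle pole kinase, was the one called, at -1.60 ± 0.35 (adjusted p = 0.0182).

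The 38 kept responses were 32 that rose and 6 that fell, most of them modest, with a median of log2 1.24 in floxed and 1.13 in cKO hearts and a median level of 6.79 CPM. The monocyte chemokine Ccl8 (chr11:82115185-82116799) had the largest. It was at 0.389 and 0.420 CPM in floxed sham, 11.4 and 12.4 CPM in floxed TAC, 0.0969 and 0.332 CPM in cKO sham and 10.1 and 8.93 CPM in cKO TAC hearts. Both TAC groups lay far above both sham groups, the responses were log2 3.19 and 3.12, and the interaction was -0.08 with an interval from -0.77 to 0.61. All its sham values lay under the 1 CPM added before the log, so both responses depend on that addition. With 0.25 CPM added instead, 23 genes were kept in place of 38.

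Tk1, above, had the second largest. Comp, a cartilage matrix protein gene, had responses of log2 1.70 and 1.76, the skeletal myosin-binding protein gene Mybpc2 1.81 and 1.57, and the interferon-induced Ifi27l2a 1.57 and 1.55. The matrix gene Adamtsl2 retained 94.8% of its floxed response. Epsti1, Atad2 and Kif1a completed the 10 largest with Tk1, Ccl8 and E2f1, and the interaction farthest from 0 among the 10 was that of Mybpc2, at -0.23. The interferon list as a whole had 5 of 23 genes higher and 3 lower in floxed hearts, 0 in cKO hearts and 3 called interactions, against 27.9% higher, 14.5% lower and 14.1% with a called interaction over all genes.

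**Figure D5:**
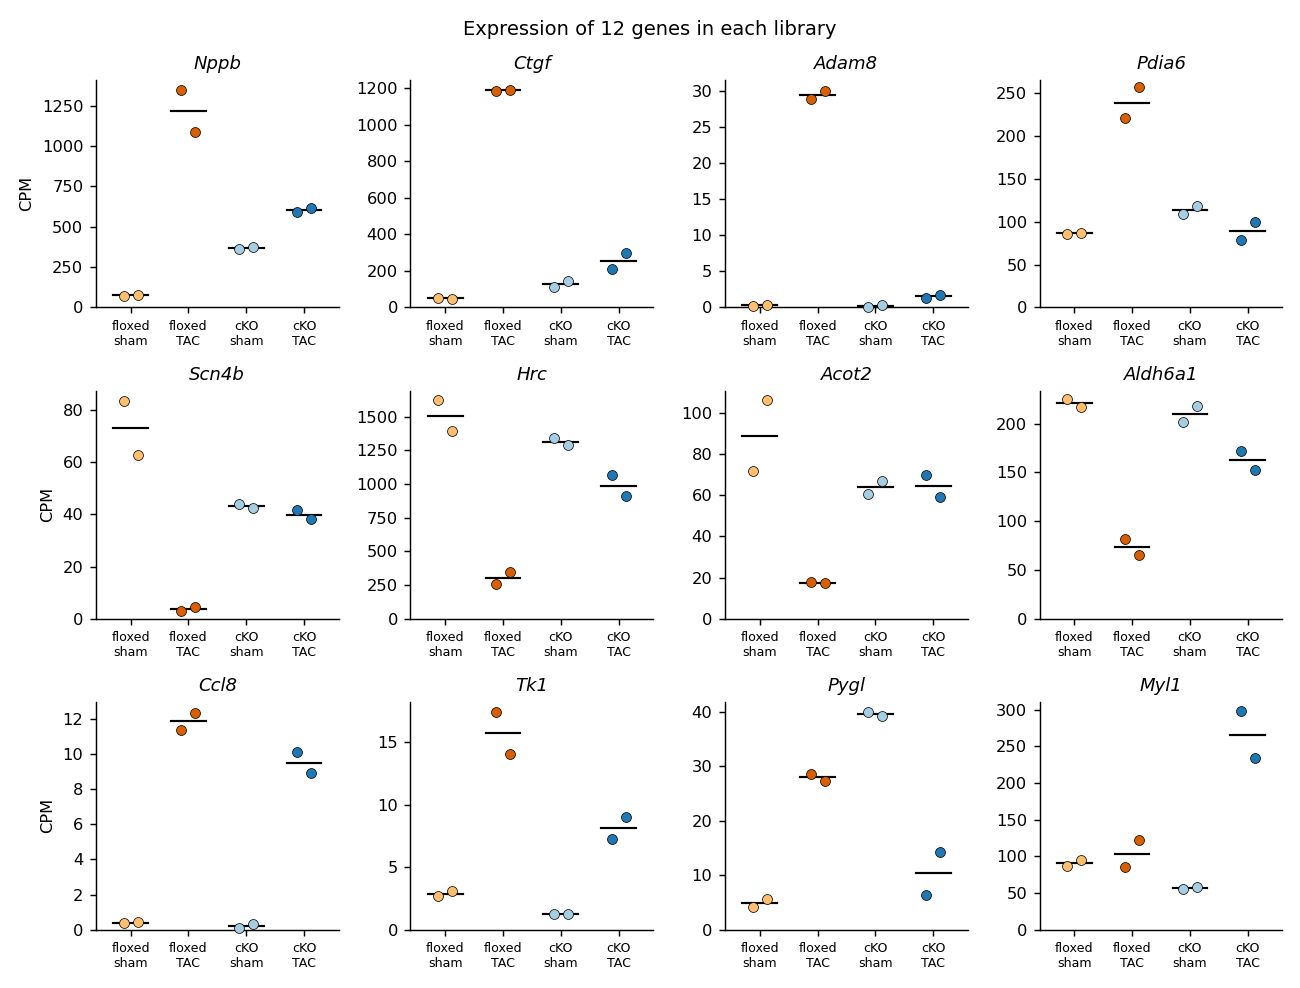
Expression in each library (y axis, CPM from 0) of 12 genes by group (x axis), 1 point per library with a line at the mean of 2. Nppb, Ctgf, Adam8 and Pdia6 rose and Scn4b, Hrc, Acot2 and Aldh6a1 fell mainly in floxed TAC hearts; Ccl8 and Tk1 rose in both genotypes; Pygl changed in opposite directions and Myl1 rose in cKO TAC hearts.

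Responses in opposite directions were called for 6 genes, and for the 3 largest of them cKO sham hearts already stood well above floxed sham hearts. Pygl, the liver-type glycogen phosphorylase (chr12:70190811-70231488), was at 4.09 and 5.58 CPM in floxed sham, 28.6 and 27.3 CPM in floxed TAC, 40.0 and 39.3 CPM in cKO sham and 6.45 and 14.2 CPM in cKO TAC hearts. The 4 groups did not overlap. The interaction was -4.26 ± 0.41 (adjusted p = 0.00191), and the sham difference was log2 2.81 (adjusted p = 0.0127).

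Dcdc2a, a doublecortin-domain gene of cilia (chr13:25056004-25210706), was at 0.324 and 0.180 CPM in floxed sham, 24.7 and 26.2 CPM in floxed TAC, 4.36 and 9.62 CPM in cKO sham and 0.552 and 0.346 CPM in cKO TAC hearts. Gbp1, an interferon-induced GTPase of a family with close copies, was at 0.260 and 0.0600 CPM in floxed sham, 10.9 and 13.2 CPM in floxed TAC, 6.01 and 19.1 CPM in cKO sham and 0.221 and 0.230 CPM in cKO TAC hearts. For both genes floxed TAC and cKO sham hearts were the high groups. Their interactions, -6.79 ± 0.43 and -6.77 ± 0.58, were the largest of the 6 in size.

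The other 3 had smaller values and no called sham difference. Cnga3, a cyclic nucleotide-gated channel gene, had an interaction of -2.42 ± 0.31 and Igfbp3, which binds insulin-like growth factors, -2.12 ± 0.31. Manba, the lysosomal beta-mannosidase, fell in floxed and rose in cKO hearts (1.63 ± 0.30) and missed the threshold in 1 of 19 alternatives (adjusted p = 0.0543). All 7 genes with a called sham difference were called in the interaction: Nppb, Ctgf, Pygl, Dcdc2a and Gbp1 above, and Hrasls and 2210407C18Rik, which were chosen after their values were seen. Hrasls exceeded the floxed sham level in cKO sham hearts by log2 3.32 and had an interaction of -2.36 ± 0.57. The gene 2210407C18Rik differed there by log2 -2.82 and had an interaction of 1.83 ± 0.40.

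Of the response genes 2 had the larger response in cKO hearts, both chosen after their values were seen. Myl1, a fast skeletal myosin light chain gene, was at 86.5 and 94.8 CPM in floxed sham, 85.0 and 122 CPM in floxed TAC, 54.9 and 57.7 CPM in cKO sham and 298 and 234 CPM in cKO TAC hearts. Only cKO TAC hearts stood apart, and the interaction was 2.04 ± 0.25 (adjusted p = 0.00437). Gm14085 fell in cKO hearts, from 19.4 and 21.2 to 5.46 and 3.34 CPM, with an interaction of -1.86 ± 0.38. Skeletal muscle markers, which include Myh4 and Ckm, summed to 2526 and 3241 CPM in cKO TAC and 1122 and 1276 CPM in floxed TAC hearts. In sham hearts of both genotypes they summed to 2939 to 3070 CPM. Their median response in cKO hearts was log2 0.35 over 7 tested genes, with 0 called. The part of such transcripts in the rise of Myl1 was not tested.

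Outside the response genes and among those with the lowest p, H2-Eb1, of the class II antigen presentation complex, was at 33.3 and 33.5 CPM in floxed sham, 110 and 135 CPM in floxed TAC, 68.3 and 54.8 CPM in cKO sham and 35.7 and 52.3 CPM in cKO TAC hearts. Floxed TAC hearts were highest and cKO sham hearts second, without overlap, and the interaction was -2.32 ± 0.27 (adjusted p = 0.00415). Among the response genes that rose and had the lowest interaction p, which were thereby chosen for a large reduction, Hmox1, heme oxygenase, retained 26.9% of its floxed response. Responses in floxed and cKO hearts were, for Adam8, a surface protease of leukocytes, log2 4.58 and 1.02, and for the fibronectin receptor subunit Itga5 1.95 and 0.37. Among those that fell, chosen likewise, Rpl3l, the muscle form of a ribosomal protein, had -2.73 and -0.64, Lrtm1 -2.22 and 0.05, the monoamine oxidase Maob -2.19 and -0.30, and the carboxylesterase Ces1d, one of a cluster of similar genes, -4.95 and -1.02.

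Stress and signalling lists are read against 9.18% negative and 4.93% positive interactions over all genes. Of 20 immediate early genes 18 rose in floxed hearts and 1 in cKO hearts, with 6 negative interactions and 1 positive. Atf3 was at 20.7 and 24.5 CPM in floxed TAC and 10.3 and 4.49 CPM in cKO TAC hearts, below both cKO sham libraries (interaction -3.07 ± 0.45). Of 15 inflammation and acute phase genes 13 rose in floxed and 1 in cKO hearts with 4 negative interactions, among them Socs3 (-2.56 ± 0.43), the feedback inhibitor of cytokine signalling, and the oncostatin M receptor Osmr (-1.73 ± 0.28). Serine, one-carbon, pentose and nucleotide synthesis had 15 of 26 genes higher in floxed and 1 in cKO hearts with 5 negative interactions, such as that of G6pdx (-1.31 ± 0.26), which feeds the pentose pathway. IGF ligands and binding proteins had 6 of 11 higher in floxed hearts, 2 higher and 1 lower in cKO hearts and 2 negative interactions, of which that of Igf1 was lost in 15 of 19 alternatives; the count was 1 under RLE, limma-voom and edgeR and 4 without cKO TAC 2. The integrated stress response had 3 negative and 1 positive interactions of 18 and ribosome biogenesis 4 negative of 22, and the circadian clock 0 of 18 (3 at an unadjusted p under 0.05; 0 by limma-voom and edgeR and 1 by DESeq2; 5 without cKO sham 2, 4 without cKO TAC 2, 1 without floxed TAC 2 and 10 without the atrial libraries). With floxed sham 1 left out the negative calls were 1 for immediate early genes, 2 for inflammation, 1 for serine and related synthesis, 1 for the integrated stress response and 0 for ribosome biogenesis. With cKO TAC 2 left out they were 12, 6, 11, 6 and 6, and the other 6 fits without 1 library lay between or, for synthesis without floxed TAC 1 and for ribosome biogenesis without floxed sham 2, floxed TAC 1 or floxed TAC 2, at 0.

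The let-7 axis is a known route of LIN28A action, though not the only possible one, so transcripts with let-7 sites were described separately. The mature let-7 family of RefSeq (GRCm38.p6) has 11 members that share the seed, bases 2 to 8, shown in capitals; 3 of them illustrate it.
mmu-let-7a-5p: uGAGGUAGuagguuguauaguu
mmu-let-7g-5p: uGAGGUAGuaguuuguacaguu
mmu-miR-98-5p: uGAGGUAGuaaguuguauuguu
The complement of the seed followed by an A, CTACCTCA, is the 8-base site. In the 3′ UTRs of annotated transcripts (GENCODE M21, GRCm38) the 3 genes with this site, a group mean of at least 5 CPM and the lowest p of a negative interaction were Adam8 (chr7:139979350-139979371, minus strand), Efhd2 (chr4:141859170-141859191, minus strand) and Tgfb1i1 (chr7:128255226-128255247, plus strand), shown with the site in capitals; Efhd2 and Tgfb1i1 were chosen after their values were seen.
Adam8: tgcacacgctgttcCTACCTCA
Efhd2: gccactgtgcgaatCTACCTCA
Tgfb1i1: gggaatagatagatCTACCTCA

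Genes with such sites are described by their medians and calls. The median interaction was -0.13 for 444 genes with an 8-base site, -0.11 for 1630 with a 7-base site alone (CTACCTC or TACCTCA) and -0.15 for 9954 with none, over 12028 genes matched to a 3′ UTR. A negative interaction was called for 8.78%, 8.04% and 9.83% of them and a positive one for 6.53%, 5.03% and 4.95%. The sets differ in median 3′ UTR length, at 2532, 2385 and 1029 bases, and the part of length was not tested. The median TAC response of the 3 sets was 0.17, 0.13 and 0.15 in floxed hearts.

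Of 22 let-7 target growth genes 9 rose in floxed hearts and 1 in cKO hearts, against 27.9% and 2.09% of all genes, and 4 had a negative interaction, against 9.18% (0 without floxed sham 1, 2 without floxed sham 2, and 1 without floxed TAC 1 or floxed TAC 2). Myc, a driver of growth, had the largest at -2.78 ± 0.56 (adjusted p = 0.0154), with 21.9 and 38.0 CPM in floxed TAC and 6.45 and 9.57 CPM in cKO TAC hearts, and its transcript searched here held no site. Igf2bp2, an RNA-binding protein gene with an 8-base site, was at 2.34 and 3.96 CPM in floxed sham, 14.8 and 17.8 CPM in floxed TAC, 4.17 and 2.92 CPM in cKO sham and 5.46 and 5.19 CPM in cKO TAC hearts. Floxed TAC hearts stood above the other groups and the interaction was -1.59 ± 0.35 (adjusted p = 0.0202). The receptor Tgfbr1, with an 8-base site (-0.90 ± 0.19), and the GTPase gene Nras, with 7-base sites (-0.83 ± 0.19), were the other two, while Ccnd2, whose transcript holds 7-base sites, was not called at 0.18 ± 0.20.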

How the data were processed

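Left ventricular RNA was measured in 8 libraries, 2 in each of 4 groups. The authors deposited CPM for 13439 genes. Bowtie2 2.2.6, HTSeq, DESeq2 and the mm10 build are named per the submitters' processing notes; the annotation and the counting settings, strand included, are, in the sources used here, not given, so overlapping genes and close paralogs are uncertain. In each library 100% of the deposited CPM were whole multiples of 1 read within 0.02 reads. Limma 3.58.1 (R 4.3.3) with a trended variance was fitted to log2(CPM + 1) with 1 coefficient per group, two-sided, Benjamini-Hochberg adjusted over 13120 genes; a fold change on this scale understates the change of low genes. On the recovered reads, edgeR 4.0.16 called 1601 interactions and DESeq2 1.42.0 called 1933. The filter on low values removed 319 genes. The fit was also run on simulated data with the same spread beyond counting error for every gene and group. That simulation held no sex or atrial difference within a group, so it does not show how the test performs on these libraries.

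The members and gene lists were chosen with earlier results of these data known. Named were, among genes with a group mean of at least 5 CPM, the 10 with the lowest interaction p among response genes that rose and among those that fell, the 6 outside them, the 10 largest kept responses, every gene with opposite responses, and up to 4 with the lowest p and the most abundant member of each list; Xist, Ddx3y, Myl7, Pck2, Nppa and Nppb are named whatever their values. Of 698 list memberships 661 were listed, 5 under a synonym. The fits without 3 libraries and with a crossed pairing were chosen after seeing the data.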

Additional observations from a re-analysis of the deposited data

Results flagged for a closer look

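The response to TAC differed between genotypes, by the test of the difference itself, for 1851 genes. For 6 of them both responses were called and ran in opposite directions. The interaction was -6.79 for Dcdc2a, -6.77 for Gbp1, -4.26 for Pygl, -2.42 for Cnga3, -2.12 for Igfbp3 and 1.63 for Manba. In the first 3 the cKO sham libraries were themselves high, and in cKO sham 2, the library with Xist at 44.3 CPM, Gbp1 was at 19.1 CPM against 6.01 CPM in cKO sham 1; the part of that library in the result was not tested beyond leaving it out, where all 6 kept a called interaction. No explanation was tested.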

How the results depend on the processing

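Whether depth or the spread between the 2 libraries of a group limits the calls was not tested. Each fit that leaves out 1 library assumes that the lone sample of its group varies as the others do. Without a variance trend the interaction was called for 1118 genes, genotype in sham for 2 and scaled down for 60. By limma-voom the TAC response in cKO hearts was called for 133 genes, genotype in sham for 2, kept for 23 and scaled down for 49. By DESeq2 they were 691, 52, 23 and 218. Kept genes were 23 with a pseudocount of 0.25 and 24 with at least 5 CPM in 2 libraries; edgeR gave no interval for this class. Without the 3 libraries with atrial transcripts, a choice made after seeing the data, the TAC response was called for 62 genes in cKO hearts and 2894 on average, kept for 25 and scaled down for 19.

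Leaving out 1 library at a time gave 253 to 2918 interactions, 3618 to 5921 floxed and 73 to 614 cKO TAC responses, 3330 to 4939 average responses, and genotype differences of 1 to 16 genes in sham and 1330 to 3624 after TAC. Kept genes ranged from 16 to 72, scaled-down genes from 16 to 182 and genes not detected from 118 to 542. The retained share ranged from 34.8% to 53.8% for genes that rose and from 27.9% to 38.1% for genes that fell. The median interaction of glycolysis was -0.04 and turned positive with RLE (0.0875), limma-voom (0.0869), edgeR (0.0876) and DESeq2 (0.0876).

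With the replicate block 1873 interactions were called; same-numbered libraries share only a number, and the correlations of their deviations lay between -0.105 and 0.0812. Crossing the floxed TAC numbers, a pairing chosen after seeing the data, gave 1924. Of 142 named genes with a called interaction, 57 were called in all 19 alternatives and 94 in all that leave out no library. The causes were not tested.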
